A study of Mus musculus with 4 samples.

Results

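Leukocytes leave the blood in steps, and the 10 genes described here encode molecules of those steps. Selectins on activated endothelium (Sele, E-selectin, and Selp, P-selectin) slow passing leukocytes by binding the glycoprotein PSGL-1 (Selplg). Integrins on the leukocyte then hold it to the vessel wall: LFA-1, the pair of Itgal and Itgb2, binds ICAM-1 (Icam1), and VLA-4, the pair of Itga4 and Itgb1, binds VCAM-1 (Vcam1). Itgb7 also pairs with Itga4, and that heterodimer binds MAdCAM-1 and VCAM-1. Ackr1, the atypical chemokine receptor of venules, carries chemokines across the endothelium. In the central nervous system the small veins behind the capillaries are the usual place of entry. The 10 genes were found by symbol among the 53647 genes of the count tables, each under 1 gene ID; 5 act on the vessel side (Vcam1, Icam1, Sele, Selp and Ackr1) and 5 on the leukocyte side (Itga4, Itgal, Itgb2, Itgb7 and Selplg).

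They were measured in single cells from the lesion segment of the spinal cord of aged C57BL/6J mice, 28 days after spinal cord injury. The mice had received an antibody to CD8 (Anti-CD8, 2 libraries), a surface protein of cytotoxic T cells, or IgG (2 libraries); all 4 libraries came from injured cord. The number of mice behind a library is not given in the sources used here, so p-values measure the spread between libraries. Values are unique molecular identifiers (UMIs), the counted RNA molecules, summed over the cells of a class in a library and given as CPM, their share of all UMIs of that class scaled to the same total in every library. Values named as scaled were also adjusted with edgeR's TMM factors, which even out differences in RNA composition.

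The Anti-CD8 libraries held 152457679 and 170539226 UMIs and the IgG libraries 153016369 and 152625351 UMIs. After filtering, 7481 and 7816 Anti-CD8 cells and 6108 and 6290 IgG cells were left, with a median depth of 17284 to 21950.5 UMIs per cell and library. Pairs of libraries shared between 5 and 16 of these cells' barcodes. A UMI of Cd8a or Cd8b1 was found in 37.0% (146 of 395) and 35.3% (85 of 241) of Anti-CD8 T cells, against 84.5% (272 of 322) and 71.2% (493 of 692) of IgG T cells, and in 0.112% to 1.12% of the microglia of a library. The antibody targets the CD8 protein, and these shares describe transcripts. IgG replicate 1 stood apart by interferon-stimulated genes: it held 465 of the 711 cells of a microglial cluster led by Ifit2, Ifit3 and Mx1 and 36 of the 69 cells of an endothelial cluster led by Cxcl10, Cxcl9 and Ifit2. No member was called with or without those clusters (edgeR).

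Among the vessel classes, the vessel-side genes were most abundant in venous endothelium. Of 1625 endothelial cells, 391 fell into clusters with venous markers such as Slc38a5, Nr2f2 and Vwf, 294 into clusters with arterial markers and 820 into clusters with neither, called non-arteriovenous here; 120 were set aside for markers of other cell types. None of the 10 genes was used for clustering or naming. The non-arteriovenous cells scored highest for capillary markers against all other cells of the cord, but within the endothelium the capillary list led in 3 of their 6 clusters only. In those its markers lay above the rest of the endothelium by a mean log2 difference of at most 0.37. Capillary markers summed to 5824 and 6086 CPM (Anti-CD8) and 5693 and 6103 CPM (IgG) in these cells and to 5383 and 5605 CPM (Anti-CD8) and 5210 and 4966 CPM (IgG) in venous cells. Vcam1 stood at 284 and 357 CPM in Anti-CD8 and at 507 and 391 CPM in IgG venous endothelium. In arterial endothelium it stood at 77.4 and 76.6 CPM (Anti-CD8) and 201 and 96.7 CPM (IgG). In non-arteriovenous endothelium it averaged 48.4 CPM over the 4 libraries. Each library had its highest Vcam1 level in venous and its lowest in non-arteriovenous endothelium, although the arterial and non-arteriovenous ranges overlapped across libraries. Levels between vessel types are a description, with no test.

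Icam1 followed the same order at the top. It stood at 587 and 665 CPM in Anti-CD8 and at 693 and 839 CPM in IgG venous endothelium. Non-arteriovenous endothelium averaged 178 CPM, pericytes and smooth muscle 191 CPM and arterial endothelium 145 CPM, and the library values of these 3 classes overlapped. At least 1 Icam1 UMI was found in 92.1% of venous, 57.2% of non-arteriovenous and 56.8% of arterial endothelial cells, whose median depths were 24351, 11780 and 18183 UMIs. Vcam1 UMIs were found in 63.2%, 12.9% and 27.9% of these cells in the same order, against 1.58% of T cells at a median depth of 6771.5 UMIs. The non-arteriovenous cells, with the lowest Vcam1 share, were also the shallowest.

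Most UMIs of Sele, Selp and Ackr1 in the endothelium came from venous cells. Sele was found in 45 of 391 venous cells with 322 UMIs, against 6 of 820 non-arteriovenous cells and 1 of 294 arterial cells. Ackr1 was found in 52 venous cells with 207 UMIs, against 8 non-arteriovenous cells and 0 arterial cells. At 3 counts, that 0 allows up to 1.02% of arterial cells with an Ackr1 UMI; a cell without a UMI may still express the gene. In the mural cells described further on, Sele was found in 9 and Ackr1 in 10 of 513 cells. In microglia, which are not known to make these molecules, Sele was found in 0 of 13751 cells, Selp in 4 and Ackr1 in 7. Intervals and limits of this kind cover counting error only. Ackr1 was also found in 85 of 522 neurons (16.3%), at 8.37 CPM on average.

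Selp, whose protein is stored in endothelial granules and platelets, rested on very few cells. It was found in 6 venous cells with 140 UMIs, of which 75 came from 1 cell of Anti-CD8 replicate 2 and 54 from 1 cell of IgG replicate 1. Both of these cells also held Vwf (23 and 79 UMIs), Nr2f2 (13 and 17), Ackr1 (8 and 6) and Sele (4 and 1), and neither held a UMI of the leukocyte gene Ptprc or of the platelet gene Pf4. Neither held a UMI of the venous marker Slc38a5, of which 4 of the other 5 endothelial cells with Selp held 11 to 40 UMIs. Vcam1 had 16 UMIs in the cell of Anti-CD8 replicate 2 and 0 in that of IgG replicate 1. The cell of IgG replicate 1 held 2 UMIs of the platelet integrin gene Itga2b, and the other cell held 0. Selp averages over venous endothelium thus describe a pair of cells. Outside the vessels, 16 Selp UMIs were spread over 11 of 135 dendritic cells.

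**Figure D1:**
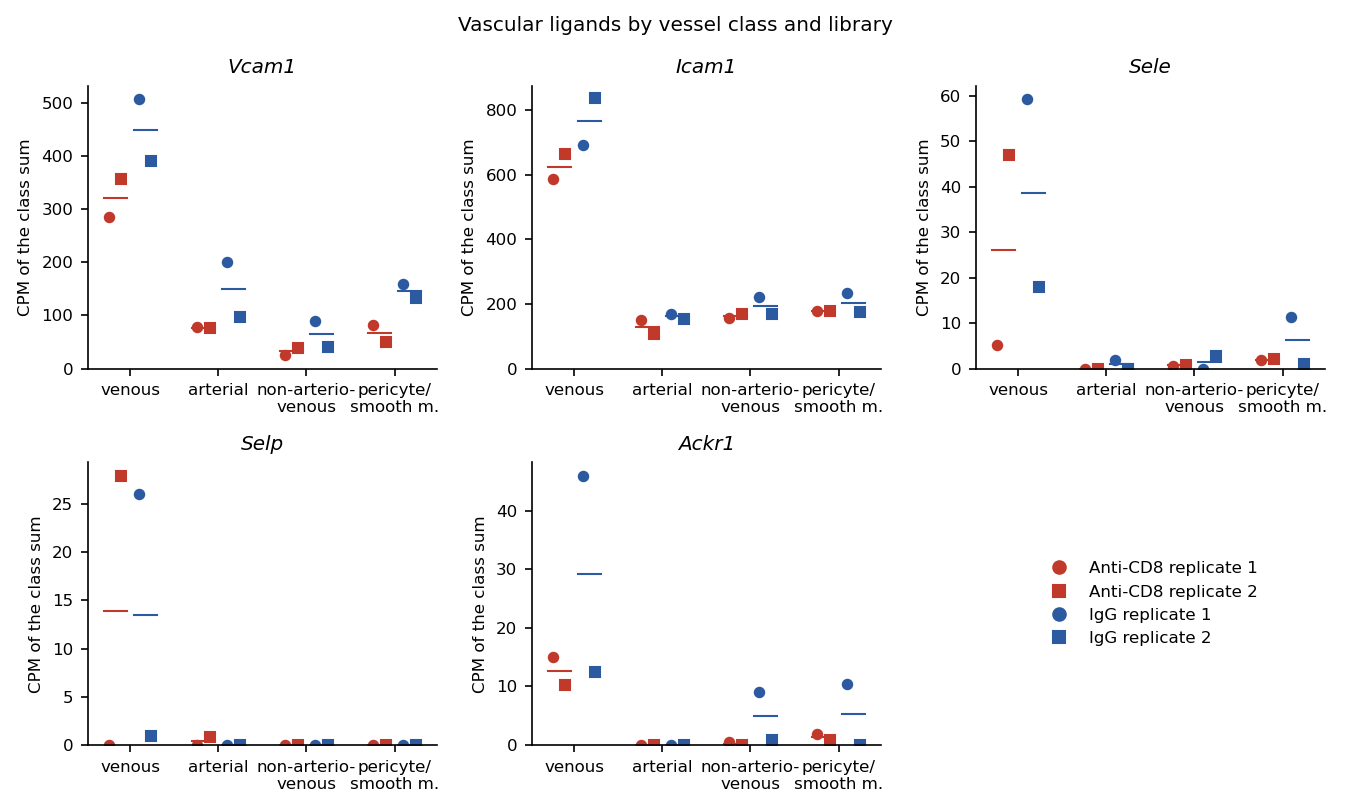
CPM of the 5 vessel-side genes in venous, arterial and non-arteriovenous endothelium and in pericytes with smooth muscle, one point per library and a line at each group's mean. Vcam1 and Icam1 are highest in venous endothelium in every library, while Selp is carried by Anti-CD8 replicate 2 and IgG replicate 1.

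Venous cells differed among themselves. One of 2 venous clusters, with 209 cells, was led by Cxcl2, Cxcl1, Adamts4, Ptgs2 and Csf3, genes of inflamed endothelium. The other had 182 cells. In the first, Vcam1 averaged 510.5 CPM and Icam1 841 CPM, against 255.5 CPM and 542 CPM in the second. The first cluster also held 274 of the 322 Sele UMIs and 154 of the 207 Ackr1 UMIs of venous cells. It made up 54.3% and 51.3% of Anti-CD8 and 44.7% and 64.4% of IgG venous cells, so the groups overlapped.

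Most venous cells with Sele or Ackr1 also held Vcam1. Icam1 was found in 95.1% of venous cells with Vcam1 and in 86.8% of those without. In IgG replicate 1 this went the other way, at 96.3% and 100%. Of the 45 cells with Sele, 43 also held Vcam1 (95.6%), against 59.0% of venous cells without Sele, and all 45 held Icam1, against 91.0%. Of the 52 cells with Ackr1, 50 held Vcam1 (96.2%, against 58.1% of the others). Sele was found in 34.6% of cells with Ackr1 and in 7.965% of those without. The share of Sele cells among Ackr1 cells was 22.2% and 50% in Anti-CD8 and 52.9% and 7.14% in IgG, so this pairing did not hold in IgG replicate 2, where 8.475% of cells without Ackr1 had Sele. Deeper cells yield more genes of any kind, and the part of depth in these shares was not tested.

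**Figure D2:**
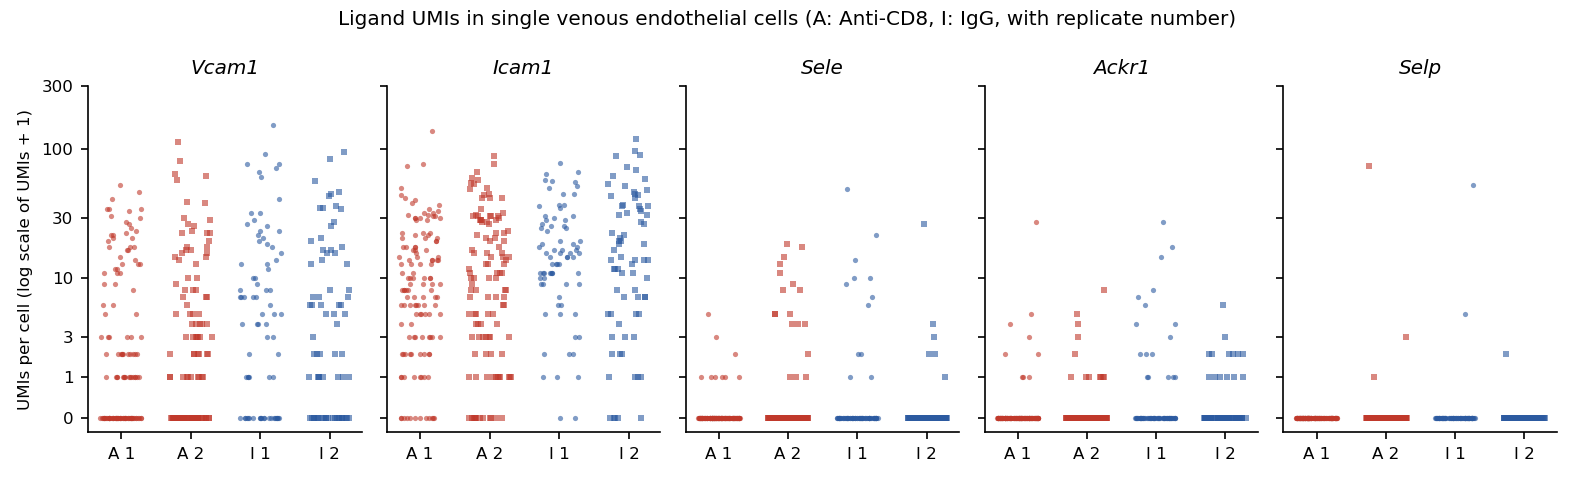
UMIs of each vessel-side gene in every venous endothelial cell, by library, on a log scale of UMIs plus 1. Icam1 is found in nearly all cells and Vcam1 in most, Sele and Ackr1 in a minority, and Selp mainly in 1 cell of Anti-CD8 replicate 2 and 1 cell of IgG replicate 1.

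Sele, Selp and Icam1 are textbook targets of NF-kB, the transcription factor that cytokines such as TNF and IL-1 activate in endothelium. Their sequences are shown because these genes share the venous cells above. Each is the 250 bases before the RefSeq transcription start on build GRCm38.p6, on the gene's own strand. The capitals mark matches to a loose form of the NF-kB motif, searched as GGG, then any 5 bases, then CC, on either strand. They show a match to this pattern only, not a site known to bind NF-kB. Sites of another form stay in lower case. Sele lies at chr1:164047984-164048233, Selp at chr1:164115014-164115263 and Icam1 at chr9:21015690-21015939, all on the plus strand.
Sele: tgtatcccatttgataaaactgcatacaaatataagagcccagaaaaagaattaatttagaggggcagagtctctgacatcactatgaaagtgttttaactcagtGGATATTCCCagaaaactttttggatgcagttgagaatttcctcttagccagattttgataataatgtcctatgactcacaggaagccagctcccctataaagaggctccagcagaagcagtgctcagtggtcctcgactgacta
Selp: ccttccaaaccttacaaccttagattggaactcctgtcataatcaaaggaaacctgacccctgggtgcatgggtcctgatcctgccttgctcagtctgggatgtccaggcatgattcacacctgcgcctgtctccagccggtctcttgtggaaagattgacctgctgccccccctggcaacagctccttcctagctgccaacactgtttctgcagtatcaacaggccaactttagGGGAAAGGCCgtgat
Icam1: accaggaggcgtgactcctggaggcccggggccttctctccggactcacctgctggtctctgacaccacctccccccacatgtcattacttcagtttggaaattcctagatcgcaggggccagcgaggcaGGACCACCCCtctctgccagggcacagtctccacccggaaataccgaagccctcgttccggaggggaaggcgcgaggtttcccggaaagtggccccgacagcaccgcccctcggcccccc
The match begins at base -145 before the start in Sele, at -15 in Selp and at -120 in Icam1, on the minus strand in Sele and Icam1 and on the plus strand in Selp. This pattern is common: 45.8% of all 32851 RefSeq promoters of this length held them on 1 strand or the other. Of the 10 genes, 6 had a promoter in the table, and 4 of the 6 held a match (these 3 and Itgb7); Ackr1 and Itga4 held none, which says only that the pattern is not in this window. Vcam1, Itgal, Itgb2 and Selplg had no entry.

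Vcam1 was not only a vessel gene. Monocytes and macrophages had 364 and 403.5 CPM in Anti-CD8 and 284 and 218 CPM in IgG, above venous endothelium of the same library in both Anti-CD8 libraries and below it in both IgG libraries. Microglia followed at 138 CPM, with at least 1 UMI in 64.2% of 13751 cells, then pericytes and smooth muscle at 106.5 CPM and Spp1-high myeloid cells at 42.1 CPM. Among microglial clusters with at least 20 cells in each library it ranged from 44.2 CPM to 195 CPM, the highest being a cluster led by homeostatic genes such as P2ry12 and Tmem119. Icam1 averaged 298 CPM in microglia and 264 CPM in macrophages.

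No member passed edgeR's quasi-likelihood test between Anti-CD8 and IgG in any of the 3 endothelial subtypes (0 of 15 tests, 5 at an unadjusted p under 0.05; DESeq2 called 0, with 2 at an unadjusted p under 0.05). The background was low: 0.0355% of genes were called in venous endothelium and 0% in arterial and non-arteriovenous endothelium. Vcam1 and Icam1 were both at lower values in the 2 Anti-CD8 libraries than in the 2 IgG libraries in each of the 3 subtypes. Values on that side without overlap were found for 16.9% of all genes in venous, 16.6% in arterial and 16.5% in non-arteriovenous endothelium. Per subtype, 2 of 8 members in venous, 2 of 2 in arterial and 3 of 5 in non-arteriovenous endothelium lay so, the last including Itgb7.

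In venous endothelium the scaled Vcam1 level was 287 and 358 CPM in Anti-CD8 and 512 and 396 CPM in IgG, without overlap, a log2 fold change of -0.50 (SE 0.14, edgeR adjusted p 0.880). In arterial endothelium it was 78.7 and 77.4 CPM in Anti-CD8 and 206 and 97.5 CPM in IgG (log2 fold change -0.91, SE 0.24, edgeR adjusted p 0.348). In non-arteriovenous endothelium it was 25.9 and 39.1 CPM in Anti-CD8 and 90.8 and 40.3 CPM in IgG (-1.075, SE 0.30, edgeR adjusted p 0.996). IgG replicate 1 was the highest library in all 3. The size of the difference rested on that library. Without IgG replicate 1 the venous, arterial and non-arteriovenous log2 fold changes of Vcam1 were -0.30, -0.32 and -0.36 (edgeR adjusted p 0.669, 0.965 and 1.00). Without IgG replicate 2, so that IgG replicate 1 alone stood for IgG, they were -0.67, -1.40 and -1.535, and called (edgeR adjusted p 0.0397, 3.12e-09 and 0.00117). The non-arteriovenous value was also called without Anti-CD8 replicate 2 (-1.35, edgeR adjusted p 0.0148), and it was -0.33 (edgeR adjusted p 0.977) when cells were assigned to capillaries by their own markers.

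The share of venous cells with a Vcam1 UMI was 57.4% and 61.1% in Anti-CD8 and 71.1% and 68.5% in IgG. Their median depth was 22122 and 22645 UMIs in Anti-CD8 and 28257.5 and 28372 UMIs in IgG. After each cell was thinned to 2000 UMIs, the shares were 27.9% and 34.5% in Anti-CD8 and 36.8% and 32.9% in IgG, and they overlapped. Venous markers moved with Vcam1: their summed level was 2667 and 2870 CPM in Anti-CD8 and 3143 and 3509 CPM in IgG, with all 8 markers above 0, and the part of this in the Vcam1 values was not tested. Venous cells made up 23.1% and 28.1% of Anti-CD8 and 23.4% and 21.5% of IgG endothelium.

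Icam1 in venous endothelium was at 591.5 and 668 scaled CPM in Anti-CD8 and at 699 and 850.0 scaled CPM in IgG (log2 fold change -0.30, SE 0.12, edgeR adjusted p 0.922). Its fold change was -0.31 in arterial and -0.28 in non-arteriovenous endothelium, with edgeR adjusted p of 0.986 and 0.996. The SE was 0.16 and 0.13. With 1 library left out, the Icam1 fold change ran from -0.43 (without IgG replicate 1) to -0.15 (without IgG replicate 2) in venous, from -0.58 (without Anti-CD8 replicate 1) to -0.10 (without Anti-CD8 replicate 2) in arterial and from -0.47 (without IgG replicate 2) to -0.053 (without IgG replicate 1) in non-arteriovenous endothelium, and it was not called in any of these.

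The scarcer ligands varied widely within a group. Sele in venous endothelium was at 5.13 and 47.2 scaled CPM in Anti-CD8 and at 59.7 and 18.25 in IgG (log2 fold change -0.62, SE 0.62, edgeR adjusted p 0.970). The direction of Sele turned with the library left out: it was 0.27 when Anti-CD8 replicate 1 was out, -2.92 for Anti-CD8 replicate 2, 0.48 for IgG replicate 1 and -1.23 for IgG replicate 2 (edgeR adjusted p 0.0765 to 1.00). Selp was at 0 and 28.0 in Anti-CD8 and at 26.3 and 0.936 in IgG. Ackr1 was at 15.1 and 10.3 scaled CPM in Anti-CD8 and at 46.4 and 12.6 in IgG (log2 fold change -1.22, SE 0.43, edgeR adjusted p 0.903), and 104 of its 207 UMIs came from IgG replicate 1. The Anti-CD8 values lay on either side of that of IgG replicate 2; without IgG replicate 1 the Ackr1 fold change was 0.013 (edgeR adjusted p 0.997), and without IgG replicate 2 it was -1.85 and called (edgeR adjusted p 0.00461). Ackr1 UMIs were found in 9 of 129 and 12 of 113 Anti-CD8 venous cells and in 17 of 76 and 14 of 73 IgG venous cells. The IgG venous cells were also deeper, at a median of 28257.5 and 28372 UMIs against 22122 and 22645 in Anti-CD8. The part of depth in these shares was not tested.

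Other genes of vessel entry gave no call in venous endothelium. Of 20 other adhesion and junction molecules 16 were tested and 0 passed (median log2 fold change 0.014); the one with the smallest p was Podxl, a sialomucin, with a fold change of -0.21. Of 16 genes of the NF-kB response 15 were tested and 0 passed (median 0.0245, against -0.0020 over all genes), and their summed level was 4230 and 4183 CPM in Anti-CD8 and 3957 and 4286 CPM in IgG. Cxcl1, a neutrophil chemokine, was at 270.3 and 251 scaled CPM in Anti-CD8 and at 251 and 196 in IgG, and Il1r1, the IL-1 receptor, at 321 and 427.5 in Anti-CD8 and at 399.8 and 501 in IgG.

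Across the 10 broader classes tested, 0 of 65 member tests passed edgeR's quasi-likelihood test (12 at an unadjusted p under 0.05); DESeq2 called 2, Vcam1 in pericytes with smooth muscle and Vcam1 in microglia, in opposite directions. Background shares of called genes were 0.00816% in pericytes with smooth muscle, 0% in microglia, 0% in the whole endothelium, 1.2% in T cells and 0.194% in neurons. In F13a1-high myeloid cells, a class named after a gene among its leading ones, and in ependymal cells they were 0.00851% and 0.00701%. In the whole endothelium Vcam1 was at 123 and 173 scaled CPM in Anti-CD8 and at 254 and 168 in IgG, and Ackr1 at 5.08 and 3.99 in Anti-CD8 and at 19.95 and 4.07 in IgG. Both genes overlapped between the groups, with log2 fold changes of -0.51 and -1.37 (edgeR adjusted p 1.00 for each). Without IgG replicate 1 these were -0.19 and 0.17 (edgeR adjusted p 0.965 and 1.00), and without IgG replicate 2 they were -0.78 and -2.12 and called (edgeR adjusted p 3.39e-05 and 5.42e-07).

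Vcam1 in pericytes and smooth muscle, the mural cells around the endothelium, came closest to the threshold on the lower side. It was at 83.95 and 48.7 scaled CPM in Anti-CD8 and at 164 and 135.5 scaled CPM in IgG, without overlap (log2 fold change -1.16, SE 0.20, edgeR adjusted p 0.0533; DESeq2 adjusted p 0.00203). Values below IgG without overlap were found for 16.4% of genes in this class. Leaving out IgG replicate 1, IgG replicate 2 or Anti-CD8 replicate 1 gave calls (log2 fold changes -1.02, -1.30 and -1.62, edgeR adjusted p 7.795e-05, 9.19e-09 and 0.0108), and leaving out Anti-CD8 replicate 2 did not (-0.835, edgeR adjusted p 0.2275). Of 6 members tested in this class, Selplg also lay below IgG without overlap.

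The mural Vcam1 signal was narrow. UMIs were found in 124 of 513 cells, and the 5 cells with the most held 63.7% and 65.3% of the UMIs in Anti-CD8 and 68.4% and 75.1% in IgG. The cluster of 285 cells led by Rgs5, Vtn and Abcc9, pericyte genes, held most of it, at 95.03 and 57.0 CPM in Anti-CD8 and 202 and 168.5 CPM in IgG. Its second marker list was the endothelial one, at a log2 difference of 3.59 against all other cells. Its median depth was 1.44 times that of all cells of a library, on average. In another mural cluster Vcam1 was at 47.6 and 47.4 CPM in Anti-CD8 and at 111 and 9.30 in IgG, which overlapped. This cluster was shallow, at 0.295 of the library depth, and its second marker list was that of fibroblasts (log2 difference 0.66). Endothelial markers were abundant in the class: their sum was 11320 and 10940 CPM in Anti-CD8 and 10690 and 11590 CPM in IgG, with all 9 markers above 0, beside 14410 and 14020 CPM (Anti-CD8) and 13600 and 13230 CPM (IgG) of the pericyte and smooth muscle markers. Venous markers summed to 1350.0 and 1255 CPM in Anti-CD8 and 1429 and 1531 CPM in IgG. The part of endothelial RNA in the mural Vcam1 values was not tested.

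In microglia Vcam1 lay on the other side. It was at 161 and 148 scaled CPM in Anti-CD8 and at 127 and 113 scaled CPM in IgG, without overlap (log2 fold change 0.37, SE 0.07, edgeR adjusted p 0.308; DESeq2 adjusted p 0.00628). Both Anti-CD8 libraries were above both IgG libraries in 6 of the 7 microglial clusters with at least 20 cells per library. Over the whole class 20.1% of all microglial genes lay so, and no share was computed per cluster. The clusters come from the same 4 libraries and are no independent repeats. Without the interferon-high cluster the log2 fold change was 0.40 (edgeR adjusted p 0.0997). Microglial cells with a Vcam1 UMI made up 65.7% and 66.0% in Anti-CD8 and 63.2% and 61.0% in IgG, although the Anti-CD8 cells were shallower (median 17470 and 19263.5 UMIs, against 22389.5 and 22442.5 in IgG); thinned to 2000 UMIs, the shares were 23.2% and 22.9% in Anti-CD8 and 19.9% and 18.5% in IgG.

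Of the other myeloid classes tested for Vcam1, macrophages and Spp1-high myeloid cells lay on the same side as microglia and F13a1-high myeloid cells did not. The F13a1-high cells were at 16.4 and 12.75 scaled CPM in Anti-CD8 and at 17.7 and 13.5 in IgG, which overlapped (log2 fold change -0.10, SE 0.19, edgeR adjusted p 0.976). Macrophages were at 384 and 422 scaled CPM in Anti-CD8 and at 297.5 and 228 in IgG (log2 fold change 0.63, SE 0.21, edgeR adjusted p 0.999). Spp1-high myeloid cells were at 50.7 and 45.1 in Anti-CD8 and at 43.9 and 28.2 in IgG (0.41, SE 0.17, edgeR adjusted p 0.630). Neither group pair overlapped, as for 16.1% and 18.6% of the genes of these classes. Without IgG replicate 1 both were called (0.83 and 0.77, edgeR adjusted p 0.0397 and 0.0423), and without IgG replicate 2 they were 0.46 and 0.13 (edgeR adjusted p 0.548 and 0.856). In macrophages Itga4 also lay above IgG, and Selplg below it, without overlap, the second as 16% of genes did.

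**Figure D3:**
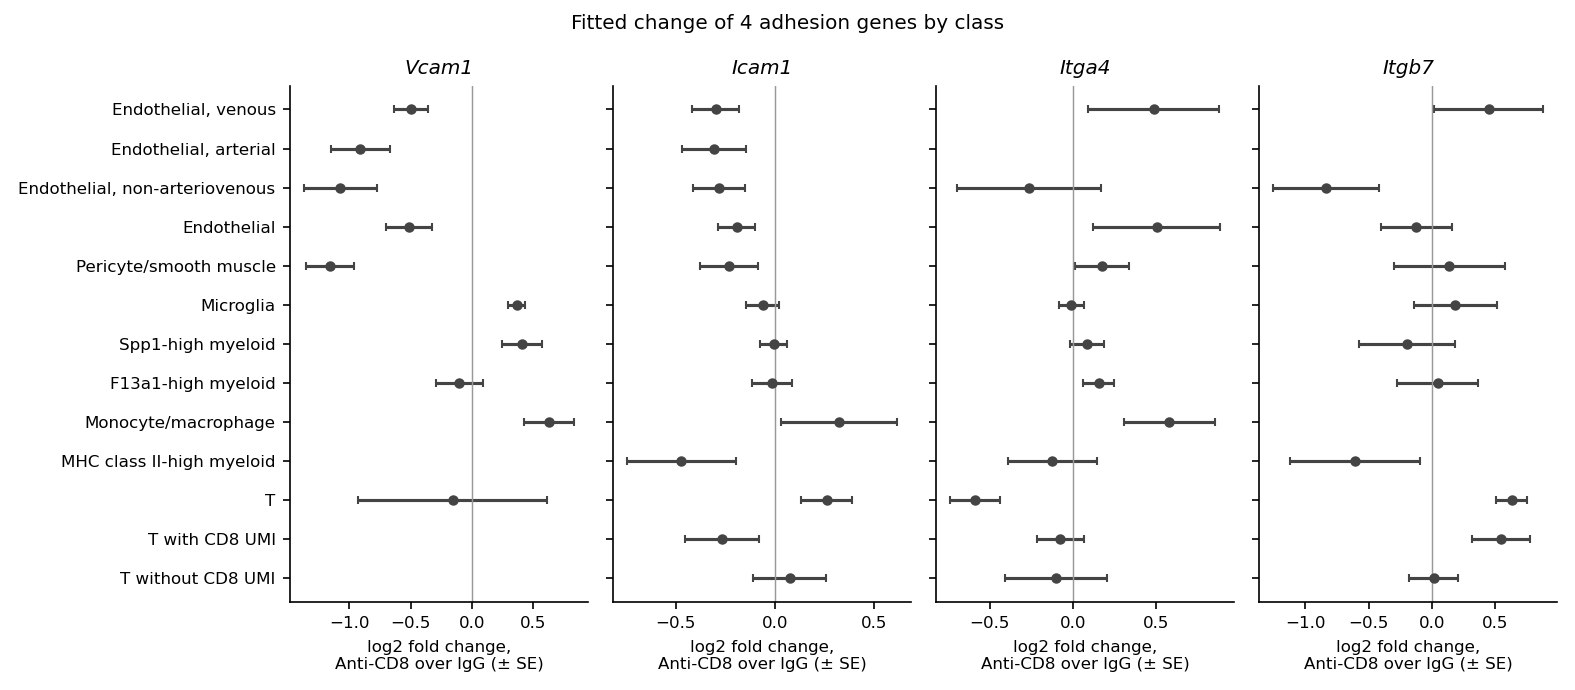
Log2 fold change, Anti-CD8 over IgG, of Vcam1, Icam1, Itga4 and Itgb7 in the vessel and immune classes where the gene was tested, with its standard error (bars). Vcam1 lies below 0 in the vessel classes and above 0 in microglia, Spp1-high myeloid cells and macrophages, while in F13a1-high myeloid cells and T cells it is below 0 by less than its standard error; no point passed the test at an adjusted p under 0.05.

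Whether the antibody difference of Vcam1 itself differed between mural and microglial cells was tested in 1 edgeR fit over both classes with the library as a block, a test added after the values above were seen. The Vcam1 fold change was lower in pericytes and smooth muscle than in microglia by a log2 difference of -1.57 (SE 0.18, edgeR adjusted p 8.79e-05); 0.0302% of genes were called in this comparison. It passed in each alternative run that kept all 4 libraries. Over all runs, each left-out library included, the difference ranged from -1.95 to -1.25. These runs reuse the same 4 libraries and are no independent repeats. The adjustment over genes does not cover the choice of these classes after their values were seen. For venous endothelium against microglia the difference was -0.83 (SE 0.14, edgeR adjusted p 0.0143, with 0.0514% of genes called). Without Anti-CD8 replicate 1 it was -0.59 and not called (edgeR adjusted p 0.438), nor was it without doublet removal (-0.83, edgeR adjusted p 0.1675). For the whole endothelium it was -0.84 and not called (edgeR adjusted p 0.252, with 0.01% called), although it was called with Anti-CD8 replicate 2 left out (-1.14, 0.0203) and with IgG replicate 2 left out (-1.04, 0.00144).

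On the leukocyte side, each gene had its own distribution. Itga4 was highest in T cells with a CD8 UMI (459.8 CPM on average), followed by dendritic cells (345 CPM) and NK cells (318 CPM); the dendritic values overlapped with both of the others. T cells without a CD8 UMI averaged 168 CPM, macrophages 109 CPM, F13a1-high myeloid cells 92.8 CPM and microglia 32.1 CPM. Itgb7 ran in another order among T cells: 205 CPM without a CD8 UMI and 108 CPM with one, with dendritic cells (165 CPM) and NK cells (121 CPM) between them. In microglia Itgb7 UMIs were found in 1.19% of cells. Its vascular partner of the gut, Madcam1, had 3 UMIs in all 1625 endothelial cells.

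The integrin chains of LFA-1 were distributed unlike each other. Itgal averaged 157 CPM in T cells, 131 CPM in NK cells and 14.9 CPM in microglia; neutrophils had 407 CPM, from 15 cells. Itgb2 averaged 266.5 CPM in Spp1-high myeloid cells, 236 CPM in microglia and 140.3 CPM in T cells, and its other partner Itgam, the alpha chain of Mac-1, was found together with it in 11770 of 13751 microglia. Selplg averaged 465 CPM in NK cells, 459 CPM in T cells, 285 CPM in microglia and 58.0 CPM in F13a1-high myeloid cells. The T and NK values of Itgal and Selplg overlapped between libraries.

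**Figure D4:**
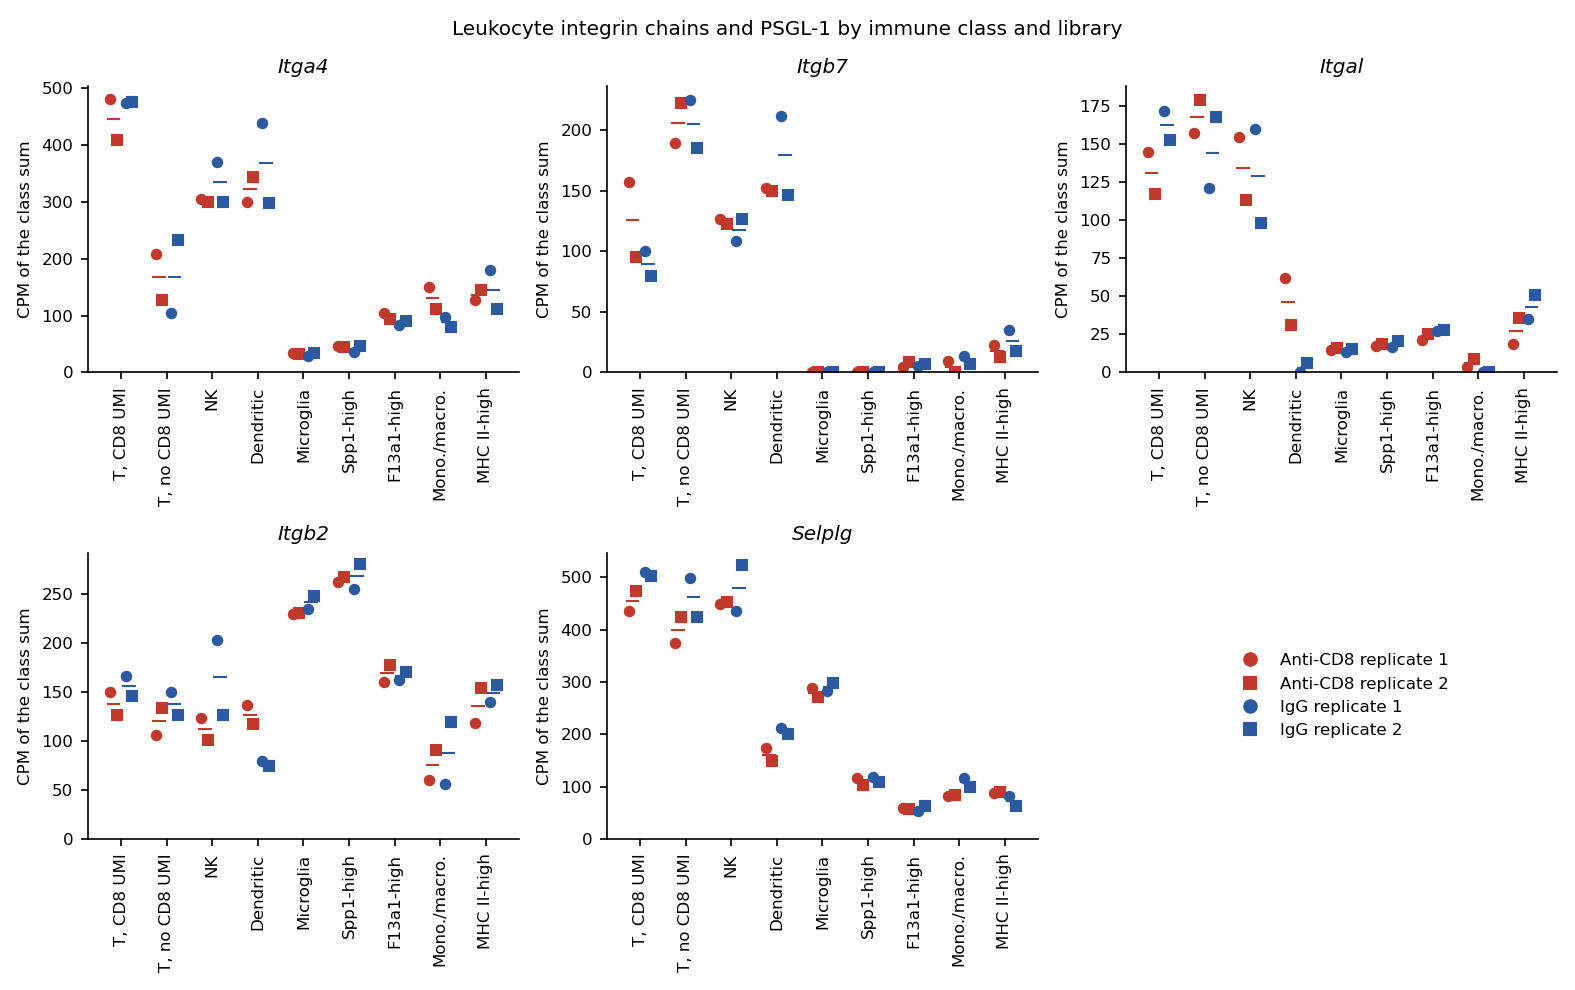
CPM of the 5 leukocyte-side genes in T cells split by a CD8 UMI and 7 other immune classes, one point per library and a line at each group's mean. Itga4 is highest in T cells with a CD8 UMI and Itgb7 in those without, while Itgb2 is highest in Spp1-high myeloid cells and microglia.

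Of 1650 T cells, 1284 fell into a cluster led by Themis, Nkg7 and Gzmk and 266 into one led by Scart1, Il17a and Il23r, genes of IL-17-producing T cells; 85 shallow cells and 15 cells led by histone genes made up the rest. The smaller cluster carried Itgb7 at 299.5 CPM and Itga4 at 28.1 CPM on average, against 110.3 CPM and 416.5 CPM in the larger one. In single T cells, Itgb7 was found in 39.6% of cells with Itga4 and in 61.3% of cells without, and the share was lower with Itga4 in each of the 4 libraries. The alpha and beta chains of VLA-4, Itga4 and Itgb1, were found together in 970 of 1650 T cells, Itga4 and Itgb7 in 454, and Itgal and Itgb2 in 633.

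Between the antibody groups, Itgb7 and Itga4 in T cells lay in opposite directions, and neither passed the test. Itgb7 was at 175 and 174 scaled CPM in Anti-CD8 and at 121 and 105 scaled CPM in IgG, without overlap (log2 fold change 0.63, SE 0.12, edgeR adjusted p 0.0528; DESeq2 adjusted p 0.0761). Itga4 was at 329 and 236 in Anti-CD8 and at 438 and 416.5 in IgG, without overlap (-0.59, SE 0.15, edgeR adjusted p 0.118; DESeq2 adjusted p 0.0676). Itgb7 was called without TMM scaling (0.65, edgeR adjusted p 0.0347), without IgG replicate 1 (0.72, 0.0154) and without Anti-CD8 replicate 2 (0.63, 0.0317). Itga4 was called without IgG replicate 2 (-0.62, 0.0192) and without Anti-CD8 replicate 1 (-0.86, 0.00118), and was -0.38 without Anti-CD8 replicate 2 (edgeR adjusted p 0.183).

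Shares of T cells lay in the same directions. Itgb7 UMIs were found in 54.4% and 55.2% of Anti-CD8 and in 45.3% and 38.9% of IgG T cells, and, thinned to 2000 UMIs, in 27.7% and 27.5% of Anti-CD8 and 19.4% and 17.4% of IgG T cells. Itga4 UMIs were found in 60.0% and 46.9% of Anti-CD8 and in 80.75% and 77.5% of IgG T cells, and, thinned, in 36.15% and 28.4% of Anti-CD8 and 53.3% and 50.3% of IgG T cells. Ependymal cells, which lack leukocyte integrins, had Itga4 UMIs in 2.94% and Itgb7 UMIs in 1.66% of cells.

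Among T cells with a CD8 UMI, Itga4 was at 485 and 421 scaled CPM in Anti-CD8 and at 482.5 and 475 in IgG, which overlapped (log2 fold change -0.08, SE 0.14, edgeR adjusted p 0.960). Among those without, it was at 211 and 129 in Anti-CD8 and at 109.5 and 232 in IgG (-0.10, SE 0.31, edgeR adjusted p 1.00). Itgb7 was at 159 and 98.0 scaled CPM with a CD8 UMI in Anti-CD8 and at 102 and 79.1 in IgG (0.55, SE 0.23, edgeR adjusted p 0.660), and at 192 and 225 without one in Anti-CD8 against 237 and 185 in IgG (0.013, SE 0.19, edgeR adjusted p 1.00). The groups thus overlapped for both genes within each of the 2 kinds of T cell, where 0.011% and 0% of genes were called. The difference of the Itgb7 fold change between the 2 kinds was 0.54 (SE 0.29, edgeR adjusted p 1.00), and that of Itga4 was -0.0056 (SE 0.31, edgeR adjusted p 1.00), with 0.0538% of genes called. The Itgb7 difference was 0.022 with Anti-CD8 replicate 1 left out and 0.94 with Anti-CD8 replicate 2 left out (edgeR adjusted p 1.00 and 0.133). T cells without a CD8 UMI can include cells whose CD8 transcripts were missed.

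**Figure D5:**
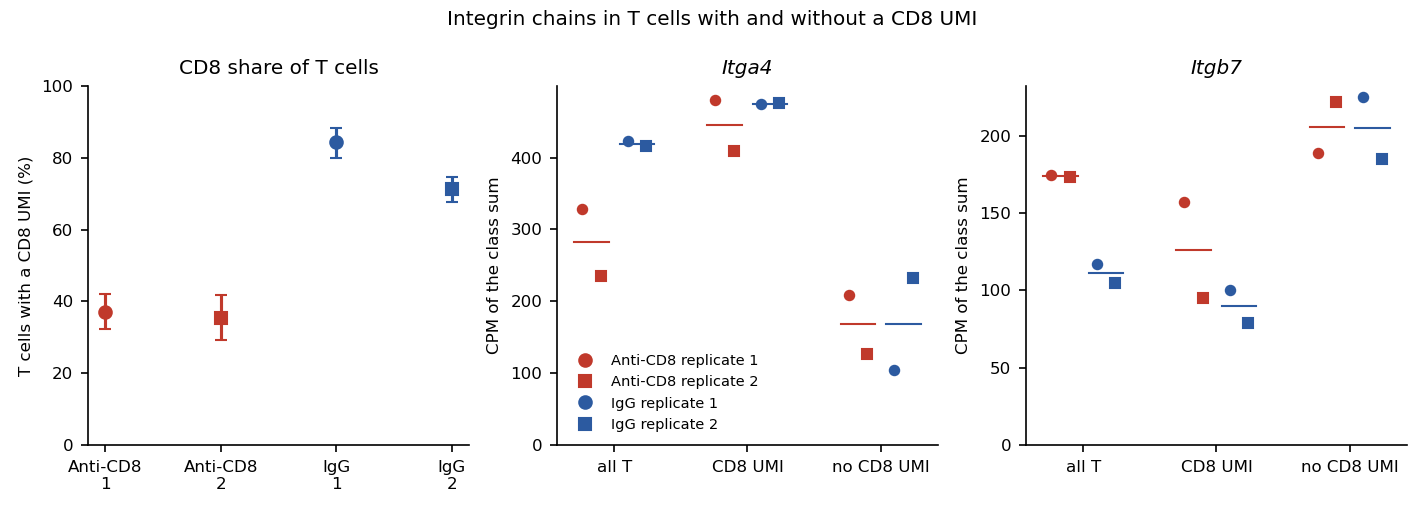
Left, share of T cells with a UMI of Cd8a or Cd8b1 with its exact binomial 95% interval. Middle and right, CPM of Itga4 and Itgb7 in all T cells and after a split by the presence of a CD8 UMI, one point per library and a line at each group's mean; the groups are apart in all T cells and overlap after the split.

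The Il17a and Il23r cluster made up 27.6% and 27.0% of Anti-CD8 and 6.83% and 10.1% of IgG T cells. In the larger cluster alone, Itgb7 was at 142.5 and 118 CPM in Anti-CD8 and at 100.3 and 80.6 CPM in IgG, and Itga4 at 425 and 338 CPM in Anti-CD8 and at 448 and 455 CPM in IgG; neither overlapped, as for 19.3% (above IgG) and 17.3% (below IgG) of the genes with at least 10 UMIs in this cluster, and neither was tested. Markers of type 2 innate lymphoid cells, some of which T cells also express, summed to 973 and 922 CPM in Anti-CD8 T cells and 477 and 585 CPM in IgG T cells, with all 6 above 0. The part of the cluster makeup in the whole-class values was not tested.

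The other leukocyte genes of T cells gave smaller differences. Selplg was at 401 and 444.1 scaled CPM in Anti-CD8 and at 525 and 484 in IgG (log2 fold change -0.26, SE 0.11, edgeR adjusted p 0.395). Itgb2 was at 125 and 131 in Anti-CD8 and at 169.9 and 141 in IgG (-0.27, SE 0.13, edgeR adjusted p 0.481). Itgal was at 151.5 and 156 in Anti-CD8 and at 171 and 157 in IgG (-0.09, SE 0.12, edgeR adjusted p 0.855). Of the 7 members tested in T cells, 4 lay below IgG and 2 above it without overlap, against 21.7% and 20.8% of all T cell genes.

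Related genes that passed in T cells, where 1.2% of all genes were called, were not among the 10. Itgb3, the beta chain of the vitronectin receptor, rose (122 and 107 scaled CPM in Anti-CD8 and 41.5 and 45.3 in IgG; log2 fold change 1.39, SE 0.14, edgeR adjusted p 0.00578), 1 of 12 other integrin chains tested. Pecam1, a junction molecule also found on leukocytes, rose (80.7 and 88.25 scaled CPM in Anti-CD8 and 43.6 and 52.6 in IgG; 0.79, edgeR adjusted p 0.0475), 1 of 8 other adhesion molecules tested. Il1r1, Nfkb1 and Nfkbia rose among 13 NF-kB response genes tested (log2 fold changes 1.42, 0.87 and 0.94, edgeR adjusted p 0.0331, 0.0432 and 0.0375). The median of the NF-kB list was 0.53 in all T cells, 0.15 in those with and 0.096 in those without a CD8 UMI. Within T cells split by a CD8 UMI, Itgb3, Pecam1, Nfkb1 and Nfkbia had edgeR adjusted p of 0.4115 to 0.9685 in cells with one and 1.00 in cells without, and Il1r1 was tested in cells without one only (-0.165, edgeR adjusted p 1.00). The Il17a and Il23r cluster also took a larger share of Anti-CD8 T cells, and its part in these values was not tested. Endothelial markers summed to 122 and 140.0 CPM in Anti-CD8 T cells and 74.0 and 88.25 CPM in IgG T cells, with none at 0. Pecam1 is itself 1 of these 9 markers, so the sums are no separate measure beside its value. The part of endothelial RNA in the Pecam1 value was not tested. Of 9 selectin ligand and glycosylation genes and 14 integrin activation genes tested, 0 passed.

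In microglia, Itgb2 was at 224.5 and 228 scaled CPM in Anti-CD8 and at 239.8 and 252 in IgG (log2 fold change -0.12, SE 0.06, edgeR adjusted p 0.584). Selplg was at 282 and 266 in Anti-CD8 and at 289 and 303 in IgG (-0.11, SE 0.06, edgeR adjusted p 0.633). Both were without overlap, on the side where 20.9% of microglial genes lay. Microglial Itga4, Itgal and Icam1 overlapped between the groups, with fold changes of -0.0098, 0.03 and -0.06. Within the 7 microglial clusters with at least 20 cells per library, Icam1 was lower in each Anti-CD8 library than in either IgG library in 4, and higher in 0. The share of all genes lying so was not computed per cluster, and the clusters come from the same 4 libraries. NK cells and dendritic cells had too few cells in IgG replicate 1 (16 and 15) to be tested.

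Neurons gave values for members usually described in vessels and leukocytes. Vcam1 was at 11.6 and 16.6 scaled CPM in Anti-CD8 and at 2.81 and 7.72 in IgG (log2 fold change 1.32, edgeR adjusted p 0.284), Icam1 at 14.97 and 27.4 in Anti-CD8 and at 5.22 and 11.1 in IgG (1.31, edgeR adjusted p 0.236), and Itgb2 at 19.8 and 20.9 in Anti-CD8 and at 8.43 and 12.1 in IgG (0.96, edgeR adjusted p 0.205). These 3 of 6 members tested lay above IgG without overlap, as did 19.2% of neuronal genes. Ackr1 lay below it without overlap, as did 18.1%, at 5.61 and 8.45 scaled CPM in Anti-CD8 and 10.44 and 9.41 in IgG (-0.48, edgeR adjusted p 0.813). Without IgG replicate 2, Vcam1 and Icam1 were called (2.31 and 2.02, edgeR adjusted p 0.00327 and 0.000557), and Icam1 also without Anti-CD8 replicate 1 (1.67, 0.0368). Without IgG replicate 1 they were 0.86 and 0.93 (edgeR adjusted p 0.563 and 0.227), and without Anti-CD8 replicate 2 Icam1 was 0.80 (edgeR adjusted p 0.608). Microglial markers in neurons summed to 138 and 248 CPM in Anti-CD8 and 94.0 and 109 CPM in IgG, and endothelial markers to 339.9 and 212 CPM in Anti-CD8 and 60.8 and 147 CPM in IgG, with no marker of either list at 0. Their part in these values was not tested.

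Genes with the most similar pattern were sought over 40 sums (10 classes in 4 libraries) among 14196 genes, as a description, since the sums share libraries and classes. The closest to Vcam1 were Sult1a1, Ch25h and Cdc42ep2 (Pearson r 0.898, 0.892 and 0.863). The closest to Itgb7 were Isy1, Crem and Gm10563 (0.906, 0.904 and 0.887) and to Itga4 Arhgdib, Arhgef6 and Mpp7 (0.928, 0.928 and 0.920). Itgal was nearest to Tmem156, Malt1 and Eri1 (0.917, 0.917 and 0.916). Selp was nearest to Sele (0.685), with Lcn2 and Aldh1a3 behind it (0.541 and 0.527), and Ackr1 to Kcnn2, Gm43154 and Zfp941 (0.917, 0.913 and 0.904).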

How the data were processed

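The authors deposited raw UMI counts by gene and barcode for 4 single-cell libraries, without normalisation. Per the submitters' processing notes, Cell Ranger 7.1.0 and the mouse build GRCm39 were used; how intronic reads were counted is not stated there. The 10 genes and all lists were chosen with earlier results of these data known.

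Of 29956 barcodes, those with 300 genes or more and no more than 20% mitochondrial UMIs were retained, and the barcodes with the top Scrublet scores (0.8% per 1000 cells of a library) were dropped as doublets, leaving 27695 cells. Clustering (scanpy 1.11.5, leidenalg 0.10.2, 3000 variable genes, 30 principal components, 15 neighbours, resolution 1) left out the 10 genes and CD8, receptor, immunoglobulin and sex-linked genes. It gave 29 clusters, and 12 among endothelial cells; some mixed clusters were divided again. Clusters were named by marker lists, each name standing for "like" that cell type. Some myeloid classes instead carry genes high in them, and non-arteriovenous endothelium is what neither venous nor arterial markers claimed. Spp1-high myeloid clusters were set apart from microglia by few microglial markers and by their Gpnmb level, not by Spp1. Spp1 was at 6391 CPM in a cluster of this class and at 7760 CPM in a microglial cluster. The thresholds for names were set after the data were seen, and 6.83% of cells stayed unnamed. Counts of each pair of libraries differed by more than sampling noise (chi-square over its degrees of freedom 31.5 to 48.9).

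UMI counts were added up by class and library. Tests covered the 10 classes and 3 endothelial subtypes with 20 cells or more in every library, and T cells with or lacking a CD8 UMI. The test was the quasi-likelihood test of edgeR 4.0.16 (R 4.3.3) with TMM scaling and edgeR's expression filter, with Benjamini-Hochberg adjustment over all genes of a class and a call at an adjusted p under 0.05. Fold changes set Anti-CD8 over IgG, and SE is the size of the log2 fold change over the root of F. The fits were run on simulated data with the same spread for every gene. Such data do not show how the fits treat genes that vary widely within a group, such as Sele, Selp and Ackr1. Alternatives were DESeq2 1.42.0, no TMM scaling, no expression filter, a replicate block, each library left out, no doublet removal, a stricter cell filter (1000 genes, 10% mitochondrial) and subtypes by cell markers. The fits without interferon-high clusters and the tests of differences between classes were added after seeing the data. All members are described; of the other lists, genes that were called or had the smallest p are named, and a few more were chosen after their values were seen. Binomial intervals are exact, at 95%, and the limit at a count of 0 is 3 counts of the total. Non-overlap shares were computed on the values tested, and for the larger T cluster on genes with at least 10 UMIs. Thinning to 2000 UMIs left out shallower cells. Promoters are RefSeq's on GRCm38.p6, and no coordinates of that build were joined to the counts. With 2 libraries a group, an exact two-sided permutation test cannot go below a p of 0.33, so none was run.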

Additional observations from a re-analysis of the deposited data

Results flagged for a closer look

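The Vcam1 fold change differed between classes by a test of the difference itself, an edgeR fit with the library as a block. The test was added after the class values were seen, and its adjustment over genes does not cover the choice of classes. The log2 fold change was -1.16 in pericytes with smooth muscle and 0.37 in microglia. Their difference was -1.57 (edgeR adjusted p 8.79e-05, Anti-CD8 below IgG in 2 of 2 mural sums and above in 2 of 2 microglial sums). Values apart in the same way were found for 16.4% of mural genes (lower) and 20.1% of microglial genes (higher). In each library, the 5 mural cells with the most Vcam1 UMIs held 63.7% to 75.1% of them. Endothelial markers were also abundant in the mural class, and the part of endothelial RNA in its Vcam1 values was not tested. Venous endothelium, with a Vcam1 fold change of -0.50, differed from microglia by -0.83 (edgeR adjusted p 0.0143). This difference was not called without Anti-CD8 replicate 1 (-0.59, edgeR adjusted p 0.438) or without doublet removal (edgeR adjusted p 0.1675). For the whole endothelium against microglia the difference was -0.84 and not called (edgeR adjusted p 0.252).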

How the results depend on the processing

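Against 0 member calls in the 10 classes by edgeR, DESeq2 gave 2, no TMM scaling gave 1 and no expression filter gave 8. Leaving out 1 library gave 1 to 8 calls: 3 when Anti-CD8 replicate 1 was out, 1 for Anti-CD8 replicate 2, 4 for IgG replicate 1 and 8 for IgG replicate 2. Against 0 calls in the 3 endothelial subtypes, no expression filter gave 5, and leaving out 1 library gave 0 to 5: 1 when Anti-CD8 replicate 2 was out, 5 for IgG replicate 2 and 0 for the other two. With a replicate block, 2 calls were made in classes (Icam1 in neurons and Vcam1 in pericytes with smooth muscle) and 3 in subtypes (Vcam1 in arterial and venous endothelium and Ackr1 in venous endothelium). Same-numbered samples correlated at -0.04 to 0.10 in their deviations from the group means. With 2 libraries a group, such correlations cannot decide whether same-numbered samples shared a batch. A sample left alone in its group is assumed to vary like the other group. The counts stayed at 0 without doublet removal, with the stricter cell filter and without interferon-high clusters, and in the subtypes also with DESeq2, without TMM scaling and with subtypes by cell markers. Of 883 alternative values of 92 member fold changes, 39 were called, and of the 82 with another sign 0 were called. The cause of these changes was not tested. The 73 to 129 venous cells per library limit the precision for Sele, Selp and Ackr1.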
